A study of Mus musculus with 12 samples.

Results

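The genes described here are the core of the transforming growth factor beta (TGF-beta) pathway: the ligands Tgfb1, Tgfb2 and Tgfb3, the receptors Tgfbr1, Tgfbr2 and Tgfbr3, and the intracellular mediators Smad2, Smad3 and Smad7. They were chosen by symbol, without use of their values, and matched to the mouse Ensembl identifiers of the count files. The 9 genes are 9 of 43629 identifiers, and 9 of 9 were among the 15059 genes with enough reads to be tested. RNA sequencing had been done on 4 groups of 3 libraries in a study of the direct conversion of fibroblasts into heart muscle cells. Group E was mouse embryonic fibroblasts of strain C57BL/6 given an empty vector, and group GHMT was such fibroblasts given Gata4, Hand2, Mef2c and Tbx5. Group AGHMT was labelled as given these same factors plus Akt. Cells of both factor-treated groups were sorted on αMHC-GFP, a green fluorescent reporter of the cardiac Myh6 promoter, and the fibroblast groups were treated for 3 weeks. Group CM was ventricular cardiomyocytes isolated from adult mice, labelled with the same strain. The labels name no sort for E or CM, so the factors and the sort cannot be told apart in any comparison with E. They do not say whether the libraries of a group came from separate cultures or animals, and p-values then measure only the spread between these libraries.

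TGF-beta ligands are secreted in a latent complex with their own propeptide and with binding proteins of the matrix, and integrins and proteases release them. The freed ligand binds the type II receptor Tgfbr2, which activates the type I receptor Tgfbr1. The co-receptor Tgfbr3, or betaglycan, presents ligand and matters most for Tgfb2. Active Tgfbr1 phosphorylates Smad2 and Smad3, which enter the nucleus with Smad4 and drive matrix and contractile genes, and Smad7 is an induced inhibitor that returns to the receptor. In the heart the pathway is known for fibroblast activation and scar formation, and in the embryo for the formation of the valves.

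In the factor-treated groups against E, Tgfb2 and Tgfbr1 were the ligand and receptor with the largest gains. Tgfb1 and Smad3 were the ligand and Smad with the largest losses there. These genes are shown by the 250 bases before their start sites, from RefSeq on GRCm38.p6. Of the 9 genes, 5 were matched to the promoter table used, and Tgfbr1 has a second start site in RefSeq that is not shown. The windows are chr1:186705990-186706239 on the minus strand for Tgfb2, chr4:47352972-47353221 on the plus strand for Tgfbr1, chr7:25686752-25687001 on the plus strand for Tgfb1 and chr9:63757995-63758244 on the minus strand for Smad3. Each is written 5′ to 3′ and ends at the base before the start site. Capitals mark matches, on either strand, to the Smad box CAGAC, the TATA box TATAAA, the CCAAT box, the Sp1 box GGGCGG or the E-box CACGTG, and no matches overlap in these windows.
Tgfb2: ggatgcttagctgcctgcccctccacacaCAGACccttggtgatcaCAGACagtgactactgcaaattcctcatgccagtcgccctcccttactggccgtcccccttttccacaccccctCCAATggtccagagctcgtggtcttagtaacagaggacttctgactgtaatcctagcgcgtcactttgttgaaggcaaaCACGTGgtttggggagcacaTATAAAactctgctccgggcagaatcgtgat
Tgfbr1: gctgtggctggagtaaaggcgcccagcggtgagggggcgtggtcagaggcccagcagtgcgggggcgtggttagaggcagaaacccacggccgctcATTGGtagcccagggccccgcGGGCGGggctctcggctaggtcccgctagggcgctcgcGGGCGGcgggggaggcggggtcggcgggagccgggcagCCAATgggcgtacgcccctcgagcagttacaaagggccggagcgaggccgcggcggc
Tgfb1: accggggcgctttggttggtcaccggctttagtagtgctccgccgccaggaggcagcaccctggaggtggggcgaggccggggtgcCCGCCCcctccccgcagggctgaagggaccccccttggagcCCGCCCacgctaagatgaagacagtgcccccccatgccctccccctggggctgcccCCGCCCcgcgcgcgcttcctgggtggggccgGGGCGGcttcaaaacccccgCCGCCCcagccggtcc
Smad3: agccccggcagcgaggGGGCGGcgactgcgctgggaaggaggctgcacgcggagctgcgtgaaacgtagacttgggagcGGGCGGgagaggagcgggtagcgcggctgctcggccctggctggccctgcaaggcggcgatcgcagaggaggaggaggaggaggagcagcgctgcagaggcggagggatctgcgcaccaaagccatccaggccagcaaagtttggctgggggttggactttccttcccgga

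The window of Tgfb2 held 2 Smad boxes and 1 each of the TATA box, the CCAAT box and the E-box CACGTG, and its GC content was 53.6%. Of the 32851 RefSeq windows of this length, 42.2% held a Smad box, 12.4% held the TATA box, 33.8% a CCAAT box and 6.0% the E-box CACGTG. Tgfbr1 had 2 CCAAT boxes and 2 Sp1 boxes in a window of 74.8% GC. Tgfb1 had 5 Sp1 boxes at 75.2% GC and Smad3 had 2 at 69.2% GC, and 32.7% of windows held at least 1. The median GC content of the windows was 52.4%. Motifs of the delivered factor families were also searched on both strands: AGATAA or TGATAA or AGATAG or TGATAG for GATA factors, AGGTGT for T-box factors, the MEF2 consensus, and the E-box CATCTG. Of these, 26.5%, 11.8%, 1.7% and 14.4% of windows held a match, and none of the 4 windows printed did. The window of Tgfbr2, which is not printed, held 1 match to AGGTGT. A match is a string of letters and not a binding site, and the absence of one says only that these letters are not in this window.

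Depth and composition differed between groups. A GHMT library held 1872558 to 2200815 reads in genes and an AGHMT library 14386407 to 18493989. CM libraries ranged from 5120230 to 15952646 and E libraries from 15971154 to 33552138. Levels are given as CPM (reads scaled to a common library total) on TMM-scaled library sizes, and 3 reads equal 1.56 to 3.93 CPM in GHMT and 0.164 to 0.231 CPM in AGHMT. GHMT 1 stood apart, with 72.2% mitochondrial reads, as did CM 3, which correlated with the other CM libraries at r of 0.870 to 0.900. The GHMT libraries correlated at 0.787 to 0.826, below the pairs of every other group. The slope of log2 level on GC content, per 10 percentage points, ran from -1.54 to -0.78 in GHMT and -0.74 to -0.25 in AGHMT, against 0.13 to 1.26 in E and 0.35 to 1.58 in CM, so GC content moves with the groups. Akt1, the named addition of AGHMT, stood at 7.30, 12.002 and 19.6 CPM in AGHMT, 1.31, 13.5 and 13.7 in GHMT and 104, 64.1 and 21.004 in E, which goes against the AGHMT label, and these are called the AGHMT-labelled libraries. Whether a delivered Akt sequence would be counted under mouse Akt1 is not known from the sources used here, so these counts do not settle the label. Summed over 8 cardiomyocyte markers, CPM ranged over 8.55 to 18.2 in E and 728 to 1266 in GHMT, and was higher in AGHMT (4114 to 4558) and CM (29996 to 56461). The sum of 8 fibroblast markers lay between 5570 and 8652 in E, with GHMT at 3812 to 5296, AGHMT at 5149 to 6207 and CM at 609 to 751. This sum joins genes that went opposite ways. Its member Dcn was at 192 to 325 CPM in E, 1253 to 2010 in GHMT and 1283 to 1388 in AGHMT. Its member Col1a2 was at 2327 to 3398 in E, 501 to 1085 in GHMT and 1536 to 1944 in AGHMT. CM also carried endothelial markers (478 to 661 CPM over 8 genes, against 8.01 to 9.53 in E) and macrophage markers (149 to 178 CPM over 8 genes, against 16.7 to 41.5 in E). The AGHMT libraries held endothelial markers at 62.0 to 72.8 CPM and macrophage markers at 69.0 to 136, where GHMT held 2.62 to 7.56 of the latter. Mast cell markers summed over 6 genes to 311 to 340 CPM in AGHMT, 65.5 to 162 in GHMT and 0.485 to 1.25 in E. In GHMT this sum was Mcpt4 alone, with Kit, Cpa3, Tpsb2, Cma1 and Ms4a2 at 0. Tpsb2 was also at 0 in AGHMT and E. The part of any such cells in the comparisons was not tested. In bulk RNA, fewer cells of a type and less RNA per cell cannot be told apart.

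The factor-treated cells differed from the empty-vector fibroblasts gene by gene. In GHMT against E, Tgfb2, Tgfbr1, Tgfbr3 and Smad7 rose and Tgfb1, Tgfb3, Smad2 and Smad3 fell. These are 8 of 9 genes past an adjusted p of 0.05 (edgeR quasi-likelihood test, Benjamini-Hochberg over 15059 genes), where 52.6% of genes tested were called, 19.8% higher and 32.9% lower. Without GHMT 1 and CM 3 the count was 7. In AGHMT-labelled against E, Tgfb2 and Tgfbr1 rose and Tgfb1, Tgfb3 and Smad3 fell, 5 of 9 against 46.5% of genes tested, and 7 of 9 without those libraries. In CM against E, 7 of 9 fell and 0 rose, where 42% of genes tested were called, 19.5% higher and 22.5% lower. Without GHMT 1 and CM 3, 9 of 9 fell, and the median log2 change of all genes tested was -0.36, beside -0.26 with all 12 libraries. The shares of all genes called without those libraries are not given here, so the counts without them have no share beside them. The comparisons with E share its 3 libraries. Groups did not overlap for 59.5% of genes tested in GHMT against E, 71.6% in AGHMT against E and 57.2% in CM against E. The share was 45.9% in AGHMT against GHMT, 58.6% in GHMT against CM and 70.5% in AGHMT against CM.

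**Figure D1:**
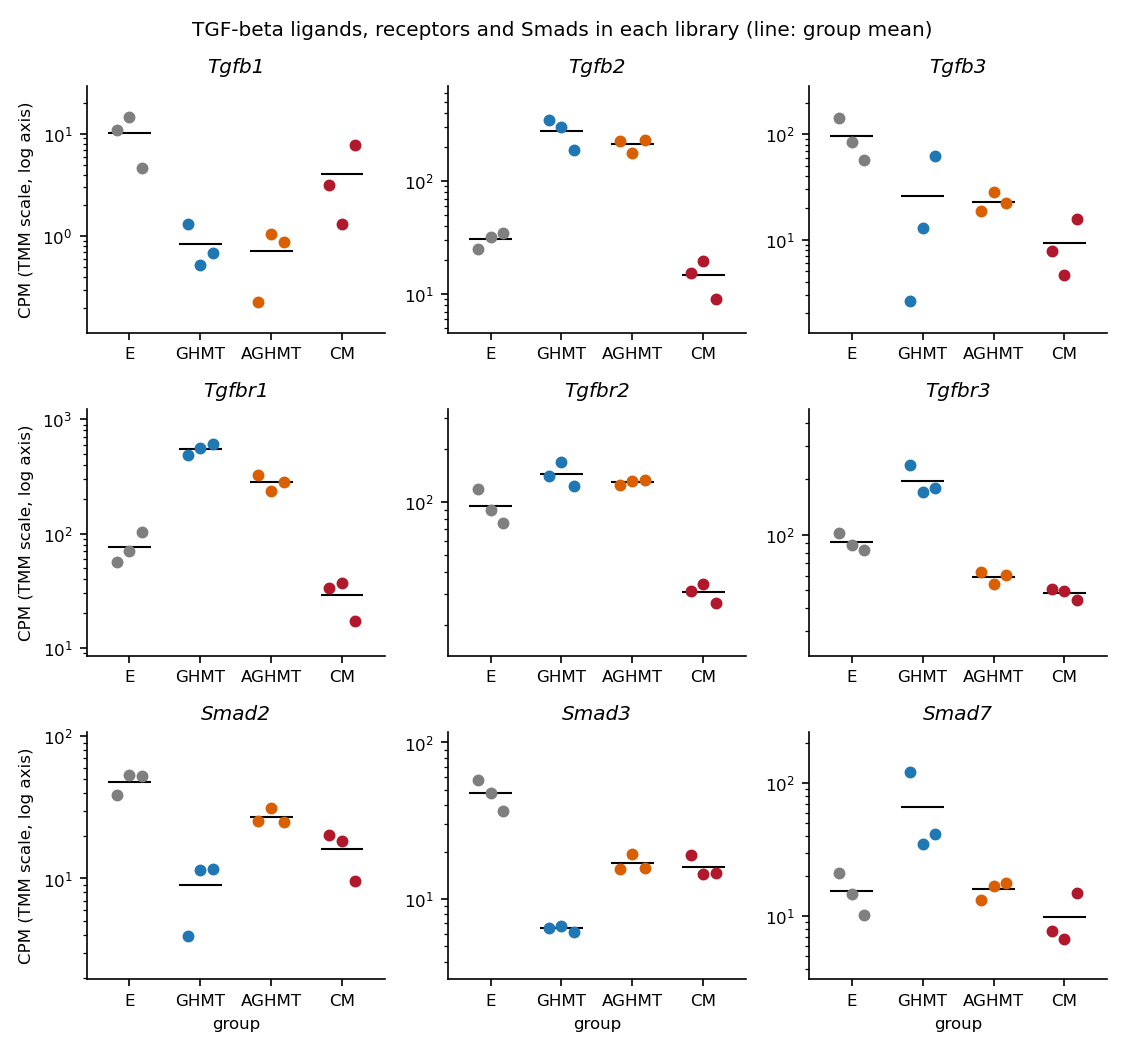
Level of each gene in each library, in CPM on a log axis, by group. Points are libraries and lines are group means. Tgfb2 and Tgfbr1 are higher in the 6 factor-treated libraries than in the 6 others, and Tgfb1 is at most 1.31 CPM in those 6.

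Tgfb2 was the ligand gained in the factor-treated cells. The gene (ENSMUSG00000039239, GRCm38 chromosome 1, 186622792 to 186705989, minus strand) stood at 25.1, 31.8 and 34.6 CPM in E libraries 1 to 3. GHMT gave 349, 299 and 188 CPM and the AGHMT-labelled libraries gave 228, 177 and 232 CPM. CM was lowest, at 15.3, 19.5 and 9.10 CPM. The 6 factor-treated libraries lay above the 6 others with no overlap, while GHMT and AGHMT overlapped each other.

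The rise of Tgfb2 was 3.19 on the log2 scale in GHMT against E (SE 0.35, edgeR adjusted p = 9.48e-06) and 2.80 in AGHMT-labelled against E (SE 0.35, adjusted p = 2.83e-05). Against CM the differences were larger, 4.24 (SE 0.37, adjusted p = 6.67e-07) and 3.85 (SE 0.36, adjusted p = 3.05e-06). The 2 factor-treated groups did not differ past the threshold, with -0.39 for AGHMT-labelled against GHMT (95% interval -1.08 to 0.30, adjusted p = 0.421). CM was lower than E by -1.05 (SE 0.33, edgeR adjusted p = 0.0187), a call lost in 7 of 25 alternatives, among them without CM 1, CM 3, E 2 or E 3 in turn. Scaled by total counts, the rise in GHMT against E was 1.71, and with a GC content correction it was 2.76, both past the threshold.

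Tgfb1, the ligand best known for driving scar-forming fibroblasts, was nearly undetected in the factor-treated cells. The gene (ENSMUSG00000002603, chromosome 7, 25687002 to 25705077, plus strand) had 655, 432 and 152 reads in E, or 10.96, 14.6 and 4.65 CPM. Each GHMT library held 1 read, equal to 1.31, 0.521 and 0.687 CPM. The AGHMT-labelled libraries, which are deeper, held 3, 19 and 16 reads, or 0.231, 1.05 and 0.873 CPM. CM ranged widely, at 3.20, 1.31 and 7.73 CPM.

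Over pooled reads, Tgfb1 was 13.996 times higher in E than in GHMT, with an exact binomial 95% interval of 4.78 to 68.0 that covers counting error only, from 1239 against 3 reads. The fitted log2 difference was -3.74 (SE 0.99, edgeR adjusted p = 0.00644), and that value depends on the prior count at so few reads. In AGHMT-labelled against E it was -3.78 (SE 0.79, adjusted p = 0.00177) from 38 reads, so the lower level is better measured there. CM against E gave -1.32 (95% interval -2.84 to 0.19, adjusted p = 0.151), and CM 3 and E 3 overlapped. It passed the threshold in 4 alternatives: without CM 3, without GHMT 1 and CM 3, with total counts and with the GC content correction. AGHMT-labelled cells were lower than CM by -2.45 (edgeR adjusted p = 0.0163), a call lost without CM 3, AGHMT 1 or AGHMT 3.

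Tgfb3 was the leading ligand of E. The gene (ENSMUSG00000021253, chromosome 12, 86056745 to 86079041, minus strand) stood at 144, 85.6 and 57.0 CPM there. The GHMT libraries spread widely, at 2.62, 13.0 and 62.5 CPM, and GHMT 3 lay inside the range of E. AGHMT-labelled libraries gave 18.8, 28.2 and 22.2 CPM and CM gave 7.73, 4.63 and 15.8 CPM, both wholly below E.

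The fall of Tgfb3 was -1.83 in GHMT against E (SE 0.72, edgeR adjusted p = 0.0438), -2.05 in AGHMT-labelled against E (SE 0.70, adjusted p = 0.0270) and -3.36 in CM against E (SE 0.75, adjusted p = 0.00202). The CM call held in 25 of 25 alternatives. The GHMT call was lost in 9 of them, including without GHMT 1, GHMT 2, AGHMT 1, AGHMT 2, CM 1, E 1 or E 2 in turn, and with the GC content correction it was -1.03 (adjusted p = 0.166). The AGHMT-labelled call was lost in 7, including without any 1 of the AGHMT libraries, E 1 or E 2. Tgfb3 overlaps the coding gene Ttll5 on the opposite strand. Whether counting used strand is not given in the sources used here, so reads of these genes may not be separated.

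The makeup of the ligand pool was set out per kb of exon, the scale on which levels of different genes can be compared. Tgfb3 made up 77.6% ± 8.18 (SD, n = 3) of the ligand total in E, Tgfb2 16.8% ± 8.17 and Tgfb1 5.64% ± 2.58. In GHMT, Tgfb2 made up 84.9% ± 18.7, with 98.3%, 92.9% and 63.5% in libraries 1 to 3, and in AGHMT-labelled cells it made up 83.8% ± 5.01. CM was mixed, with Tgfb2 at 45.1% ± 23.7, Tgfb3 at 42.8% ± 16.4 and Tgfb1 at 12.1% ± 7.29. The share of Tgfb2 in both factor-treated groups did not overlap that in E, and CM overlapped E.

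The summed ligand level was 56.0 ± 5.12 CPM per kb in GHMT, 43.6 ± 4.03 in AGHMT-labelled cells, 35.5 ± 12.8 in E and 6.11 ± 1.47 in CM (SD, n = 3). GHMT did not overlap E, the AGHMT-labelled libraries did, and CM lay below the other groups. For each pair of groups that did not overlap, the two-sided exact permutation p was 0.1, the smallest that 3 against 3 libraries allow, or 0.145 after adjustment over the 42 share, sum and ratio comparisons, so these differences cannot pass the threshold by this test.

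**Figure D2:**
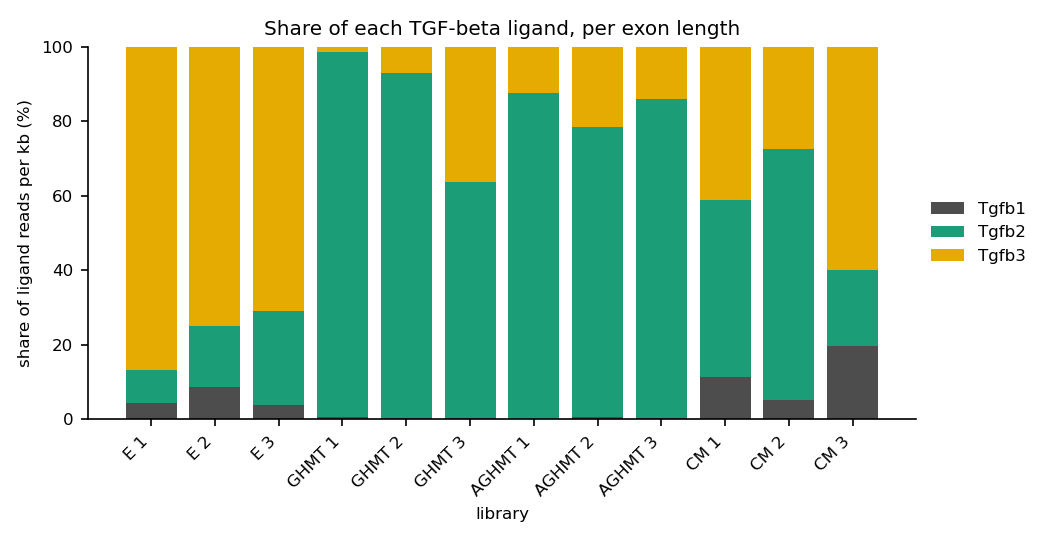
Share of Tgfb1, Tgfb2 and Tgfb3 in the summed ligand level per kb of exon, in percent, for each of the 12 libraries. Tgfb3 fills most of the bar in the 3 E libraries and Tgfb2 fills most of it in the 6 factor-treated libraries.

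Tgfbr1, the kinase receptor that phosphorylates Smad2 and Smad3, rose more than the other receptors. The gene (ENSMUSG00000007613, chromosome 4, 47353222 to 47414931, plus strand) stood at 56.8, 70.5 and 102 CPM in E. GHMT gave 482, 565 and 612 CPM and the AGHMT-labelled libraries 324, 236 and 281 CPM. CM was lowest, at 33.4, 37.2 and 17.0 CPM. The groups followed the order GHMT, AGHMT, E, CM with no overlap between neighbours.

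On the log2 scale Tgfbr1 was higher by 2.85 in GHMT against E (SE 0.34, edgeR adjusted p = 2.02e-05) and by 1.87 in AGHMT-labelled against E (SE 0.33, adjusted p = 0.000561), and differed by -1.39 in CM against E (SE 0.33, adjusted p = 0.00324). These 3 calls held in 25 of 25 alternatives. Its exons are 41.0% GC, the lowest of the 9 genes, and with the GC content correction the rises were 1.24 (adjusted p = 0.000850) and 0.89 (adjusted p = 0.00823). With total counts they were 1.49 and 1.03. AGHMT-labelled cells were below GHMT by -0.98 (SE 0.32, edgeR adjusted p = 0.0488), a call at the threshold that was lost in 15 of 25 alternatives, including without any 1 of the GHMT or AGHMT libraries, CM 1, CM 2, E 1 or E 2.

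Tgfbr2, the ligand-binding receptor, was lowest in CM, and its differences between the other groups did not pass the test. It (ENSMUSG00000032440, chromosome 9, 116084293 to 116175360, minus strand) gave 118, 89.4 and 76.1 CPM in E, 140, 167 and 122 in GHMT, 125, 131 and 133 in AGHMT-labelled cells and 31.3, 34.3 and 26.8 in CM. Both factor-treated groups lay above E without overlap, as 59.5% of genes tested did not overlap in GHMT against E and 71.6% in AGHMT against E (57.2% in CM against E). The differences from E were 0.60 (95% interval 0.02 to 1.19, edgeR adjusted p = 0.0758) and 0.46 (-0.12 to 1.03, adjusted p = 0.177), neither past the threshold. With the GC content correction they were 0.81 and 0.59 and passed it, and with total counts they were -0.79 and -0.38 and did not. CM was lower than E by -1.62 (SE 0.28, edgeR adjusted p = 0.000260), a call that held in 25 of 25 alternatives.

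Tgfbr3 separated the 2 factor-treated groups. It (ENSMUSG00000029287, chromosome 5, 107106570 to 107289629, minus strand) gave 239, 169 and 178 CPM in GHMT against 62.8, 54.0 and 60.1 CPM in the AGHMT-labelled libraries. E lay between them, at 102, 87.7 and 82.6 CPM, and CM was at 50.8, 49.3 and 44.1 CPM. No neighbours in the order GHMT, E, AGHMT, CM overlapped. Of genes tested, 59.5% did not overlap in GHMT against E, 71.6% in AGHMT against E and 70.5% in AGHMT against CM. Between AGHMT and GHMT 45.9% did not.

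AGHMT-labelled against GHMT, Tgfbr3 differed by -1.72 (SE 0.27, edgeR adjusted p = 0.00134), and this call held in 25 of 25 alternatives, from -1.90 to -1.05. Here 17.8% of genes tested were called, 13.2% higher and 4.58% lower, and of the 9 genes 2 were higher and 3 lower. GHMT against E gave 1.10 (SE 0.26, adjusted p = 0.00337), but with total counts it was -0.39 (adjusted p = 0.309), and the call was also lost with no filter and without AGHMT 3 or E 1. AGHMT-labelled against E gave -0.62 (95% interval -1.18 to -0.07, edgeR adjusted p = 0.0608), which passed the threshold in 10 of 25 alternatives. CM was below E by -0.92 (SE 0.26, adjusted p = 0.0105), a call lost in 4.

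Per kb of exon, Tgfbr1 exceeded Tgfbr2 by a ratio of 4.94 ± 1.16 in GHMT and 2.71 ± 0.503 in AGHMT-labelled cells, against 1.09 ± 0.550 in E and 1.16 ± 0.319 in CM (SD, n = 3). The 2 factor-treated groups overlapped neither E, CM nor each other, with the same smallest exact permutation p of 0.1. These ratios carry no correction for GC content, 41.0% in Tgfbr1 and 49.6% in Tgfbr2. With that correction Tgfbr1 against E was 1.24 in GHMT and 0.89 in AGHMT-labelled cells and Tgfbr2 was 0.81 and 0.59 on the log2 scale, which are closer to each other than without it. Tgfbr3 stood to Tgfbr2 at 0.570 ± 0.0573 in AGHMT-labelled cells and at 1.22 ± 0.137 in E, 1.74 ± 0.436 in GHMT and 1.96 ± 0.144 in CM.

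Smad2 and Smad3, the receptor-activated transducers, had their lowest group means in GHMT, though for Smad2 the GHMT and CM libraries overlapped. Smad3 (ENSMUSG00000032402, chromosome 9, 63646767 to 63757994, minus strand) gave 57.9, 47.6 and 36.7 CPM in E and 6.55, 6.77 and 6.19 CPM in GHMT, where these were 5, 13 and 9 reads. The AGHMT-labelled libraries gave 15.5, 19.4 and 15.8 CPM and CM gave 19.1, 14.4 and 14.8 CPM. E was above the other groups and GHMT below them without overlap, while AGHMT and CM overlapped.

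The fall of Smad3 was -2.86 in GHMT against E (SE 0.42, edgeR adjusted p = 9.28e-05), -1.49 in AGHMT-labelled against E (SE 0.36, adjusted p = 0.00481) and -1.56 in CM against E (SE 0.37, adjusted p = 0.00291). The first 2 calls held in 25 of 25 alternatives and the third was lost when the libraries were thinned to 1 depth. AGHMT-labelled cells were above GHMT by 1.38 (SE 0.41, edgeR adjusted p = 0.0324), a call lost in 8 alternatives, including without AGHMT 1, AGHMT 2, CM 1 or E 2. GHMT was below CM by -1.31 (SE 0.41, adjusted p = 0.0138), a call lost in 4, including without CM 1 and with the GC content correction (-0.45).

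Smad2 (ENSMUSG00000024563) lies on chromosome 18, as does Smad7. It gave 38.6, 53.0 and 52.2 CPM in E, 3.93, 11.5 and 11.7 in GHMT, 25.4, 31.1 and 25.1 in AGHMT-labelled cells and 20.1, 18.3 and 9.62 in CM. E was highest, AGHMT lay between E and CM without overlap, and GHMT overlapped CM. Of genes tested, 71.6% did not overlap in AGHMT against E and 70.5% in AGHMT against CM. AGHMT-labelled against CM gave 0.76 (edgeR adjusted p = 0.142) and GHMT against CM gave -0.76 (adjusted p = 0.158), neither past the threshold. The difference from E was -2.34 in GHMT (SE 0.46, edgeR adjusted p = 0.000906) and -1.58 in CM (SE 0.42, adjusted p = 0.00698), and both calls held in 25 of 25 alternatives. The value of -0.82 in AGHMT-labelled against E (95% interval -1.70 to 0.06, adjusted p = 0.114) missed the threshold and passed it in 8 alternatives. AGHMT-labelled cells were above GHMT by 1.52 (SE 0.46, edgeR adjusted p = 0.0335), a call lost in 9, including without GHMT 1, AGHMT 1, AGHMT 2, CM 1 or E 2.

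Smad7 (ENSMUSG00000025880), the inhibitory Smad, ran the other way in GHMT. The GHMT libraries gave 121, 34.9 and 41.9 CPM, with GHMT 1 far above the others, against 21.01, 14.8 and 10.3 CPM in E. AGHMT-labelled libraries gave 13.3, 16.8 and 17.7 CPM and CM gave 7.73, 6.74 and 14.9 CPM. GHMT lay above the other groups, and these overlapped one another.

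GHMT against E gave 2.07 for Smad7 (SE 0.52, edgeR adjusted p = 0.00469) and 1.31 (adjusted p = 0.0108) without GHMT 1 and CM 3. With total counts it was 0.35 (adjusted p = 0.576), and this was the 1 alternative of 25 that ended the call. AGHMT-labelled against E gave 0.05 (95% interval -1.01 to 1.11, adjusted p = 0.942) and CM against E gave -0.66 (-1.74 to 0.42, adjusted p = 0.316). AGHMT-labelled cells were below GHMT by -2.02 (SE 0.52, edgeR adjusted p = 0.0182), a call lost in 7 alternatives, including without GHMT 1, E 1 or any 1 of the AGHMT libraries. GHMT was above CM by 2.73 (SE 0.54, adjusted p = 0.000739) in 25 of 25 alternatives.

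The ratio of Smad7 to the sum of Smad2 and Smad3 per kb of exon was 16.4, 3.05 and 3.79 in GHMT libraries 1 to 3. It was 0.576 ± 0.0940 in AGHMT-labelled cells, 0.239 ± 0.0672 in E and 0.499 ± 0.330 in CM (SD, n = 3). GHMT lay above the other groups, and AGHMT above E, at the smallest exact permutation p of 0.1.

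**Figure D3:**
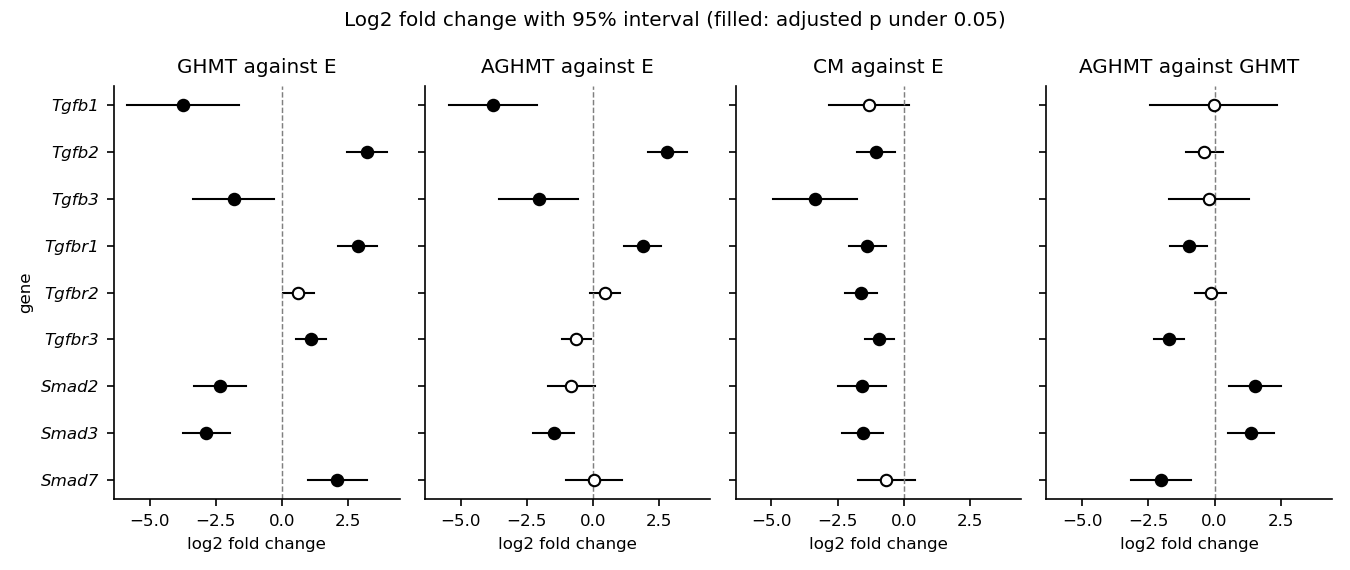
Log2 fold change of the 9 genes with 95% interval in GHMT, AGHMT and CM against E and in AGHMT against GHMT, filled where the edgeR adjusted p is under 0.05. In CM against E 7 genes lie to the left of 0 and are filled, while GHMT against E has 4 filled genes on each side.

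Against adult cardiomyocytes, 5 of 9 genes were higher and 1 lower in GHMT, where 58.6% of genes tested were called, 23.8% higher and 34.7% lower, and 3 were higher and 1 lower in AGHMT-labelled cells, where 48.1% were. Tgfbr2 was higher than in CM by 2.22 in GHMT (SE 0.29, edgeR adjusted p = 1.93e-05) and by 2.07 in AGHMT-labelled cells (SE 0.28, adjusted p = 6.68e-05). Tgfbr1 was higher by 4.24 and 3.26, and both receptors' calls held in 25 of 25 alternatives. Tgfbr3 was above CM by 2.02 in GHMT (adjusted p = 2.83e-05), while AGHMT-labelled against CM gave 0.29 (95% interval -0.26 to 0.85, edgeR adjusted p = 0.364). Smad3 in AGHMT-labelled against CM gave 0.07 (-0.69 to 0.84, adjusted p = 0.883).

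**Figure D4:**
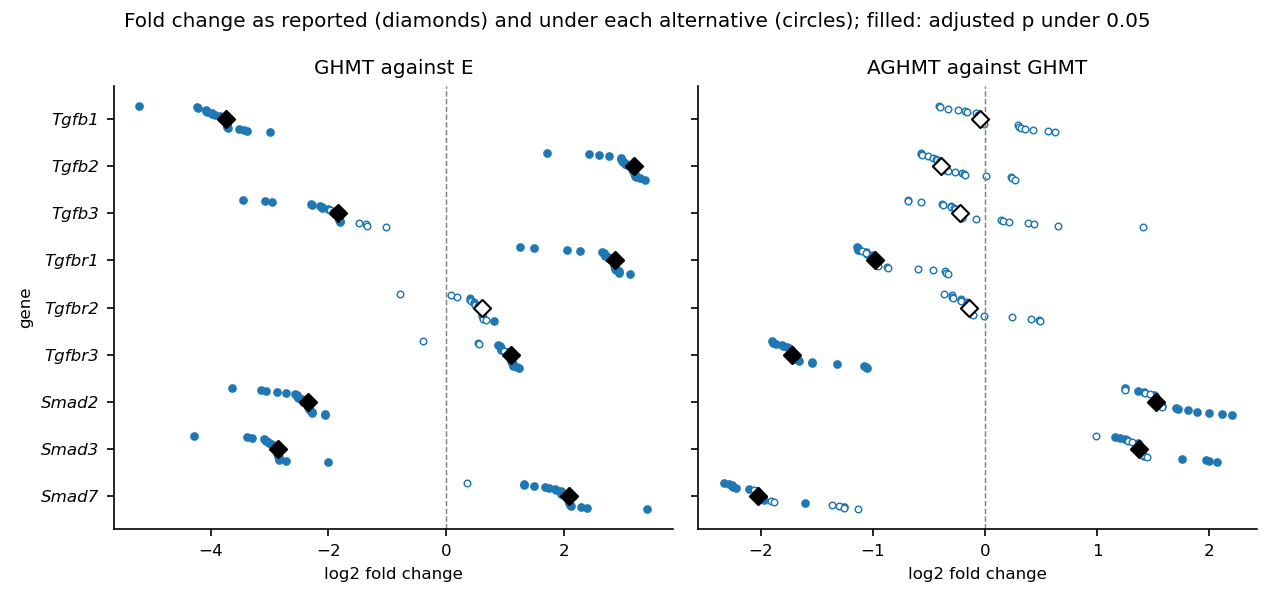
Log2 fold change of each gene in GHMT against E and in AGHMT against GHMT as reported (diamonds) and under each alternative (circles), filled where the adjusted p is under 0.05. In GHMT against E, the rises of Tgfb2 and Tgfbr1 and the falls of Tgfb1, Smad2 and Smad3 are filled throughout. Of the genes in AGHMT against GHMT, Tgfbr3 alone is.

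Transcripts of the proteins that hold and release latent TGF-beta moved in both directions, more of them down than up. Of 20 genes of the latent complex and its activation, 9 fell and 3 rose in GHMT against E, 12 fell and 3 rose in AGHMT-labelled against E, and 12 fell and 3 rose in CM against E. These are 60%, 75% and 75% called, beside 52.6%, 46.5% and 42% of all genes tested, so the GHMT share is near that of all genes. The median log2 change was -3.20, -2.46 and -1.85, beside medians over all genes of -1.06, -0.16 and -0.26. With the 3 genes at 0 reads in GHMT set at the bound that 3 reads over the group allow, the GHMT median was -1.67. Ltbp2, a matrix microfibril protein of the latent binding protein family, was at 167 ± 82.0 CPM in E and 2.49 ± 1.74 in GHMT, 3.06 ± 1.57 in AGHMT-labelled cells and 1.27 ± 0.559 in CM. Mmp2, a gelatinase, went from 101 ± 93.8 CPM in E to 2.80 ± 1.29 in GHMT (-5.06, edgeR adjusted p = 0.000857).

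Integrin subunits that activate TGF-beta went both ways. Itgb3 fell from 37.1 ± 4.06 CPM in E to 2.06 ± 3.57 in GHMT (-4.07, edgeR adjusted p = 0.00259) and 4.82 ± 0.648 in AGHMT-labelled cells (-2.94, adjusted p = 0.00759), and Itgb5 fell in AGHMT-labelled cells (-1.83, adjusted p = 0.0283), both named after their values were seen. Itgb8, which pairs with Itgav, stood at 6.40 ± 1.45 CPM in E, 152 ± 79.3 in GHMT, 109 ± 19.1 in AGHMT-labelled cells and 2.19 ± 1.01 in CM. Its rise was 4.56 in GHMT (SE 0.47, edgeR adjusted p = 4.97e-06) and 4.08 in AGHMT-labelled cells (SE 0.46, adjusted p = 1.10e-05). The other genes that rose in GHMT, named after their values were seen, were Itgav, from 377 ± 69.5 to 1626 ± 640 CPM, and the proteoglycan Dcn, from 261 ± 67.1 to 1710.4 ± 402 CPM. Itgb6 held 0 reads in GHMT and 8.22, 6.55 and 8.67 CPM in the AGHMT-labelled libraries, at least 10.7-fold higher over the floor of 3 reads in the group, and 29.2 ± 11.5 CPM in CM. In AGHMT-labelled against E the genes that rose were Itgb8, Itgb6 and Dcn, and in CM against E they were Itgb6, Ltbp4 and Nrros. CM 3 held 145 CPM of Ltbp4 against 4.31 and 7.55 in the other CM libraries, with 1.65 ± 1.11 in E. Thbs1, a matrix protein that frees the ligand, was at 6719 ± 2091 CPM in E, 5185 ± 478 in GHMT, 1426 ± 95.5 in AGHMT-labelled cells and 29.8 ± 9.34 in CM. In AGHMT-labelled against GHMT 1 gene of the list, Itgb6, rose and 3 fell: Thbs1 by -1.86 (edgeR adjusted p = 0.00190), Ltbp1 by -1.77 (adjusted p = 0.00123) and Itgav by -1.39 (adjusted p = 0.0126). Itgb1 had the highest level per kb of this list, and was at 1738 ± 95.2 CPM in GHMT and 2103 ± 464 in E (-0.27, adjusted p = 0.365).

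Of 15 genes of the activin arm and the co-receptors, 13 were tested. In GHMT against E 6 fell and 1 rose, in AGHMT-labelled against E 4 fell and 3 rose, and in CM against E 6 fell and 1 rose, which is 53.8% called each time, beside 52.6%, 46.5% and 42% of all genes. The medians of -1.01, -0.34 and -0.25 lay near those of all genes, -1.06, -0.16 and -0.26. Acvrl1, a type I receptor of endothelial cells, held 0 reads in GHMT and 1363 in E, at least 15.4-fold lower over the floor of 3 reads. Eng, its co-receptor, held 1 read in GHMT and 605 in E, a ratio of 20.5 (95% interval 3.67 to 811). The summed endothelial markers, 8.01 to 9.53 CPM in E and 2.62 to 11.98 in GHMT with Cldn5 at 0 in both, overlapped between these groups. The 1 gene that rose in GHMT, named after its values were seen, was Bambi, a decoy receptor, from 3.12 ± 0.786 CPM in E to 29.8 ± 28.6 (3.27, edgeR adjusted p = 0.00124), and Bambi was at 20.7 ± 2.50 in AGHMT-labelled cells. Mstn, or myostatin, was at 6.94 ± 1.13 CPM in AGHMT-labelled cells and 0.370 ± 0.103 in E (4.20, adjusted p = 0.000318). Acvr1c and Bambi also rose in AGHMT-labelled against E, and Acvrl1, Eng, Inhba and Inhbb fell. In AGHMT-labelled against GHMT, Mstn, Gdf11 and Gdf10 rose. Eng was the gene that rose in CM against E, and CM 3 held 93.1 CPM of it against 8.92 and 9.46 in the other CM libraries. Inhba, which encodes the activin A subunit, was at 98.3 ± 22.2 CPM in E and 0.462 ± 0.202 in CM, and Fst, which binds activin, was at 58.3 ± 3.20 and 0.635 ± 0.294 CPM.

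Among 17 tested genes of 19 Smad partners and brakes, 6 rose and 3 fell in GHMT against E, 3 rose and 2 fell in AGHMT-labelled against E, and 0 rose and 6 fell in CM against E. The shares called, 52.9%, 29.4% and 35.3%, were near or below the 52.6%, 46.5% and 42% of all genes. The medians were 0.36, 0.08 and -0.69, beside -1.06, -0.16 and -0.26 over all genes. Pmepa1, which traps Smad2 and Smad3, was at 54.2 ± 10.4 CPM in E, 150 ± 42.9 in GHMT, 43.7 ± 2.65 in AGHMT-labelled cells and 12.9 ± 6.13 in CM. Skil, a nuclear repressor of Smad targets, was at 87.4 ± 20.4 CPM in E, 200 ± 38.7 in GHMT, 95.4 ± 13.5 in AGHMT-labelled cells and 24.3 ± 4.28 in CM. Both were lower in AGHMT-labelled cells than in GHMT, Pmepa1 by -1.78 (SE 0.36, edgeR adjusted p = 0.00564) and Skil by -1.07 (SE 0.29, adjusted p = 0.0227), as Smad7 was. Smurf1, a ubiquitin ligase that acts with Smad7, was at 35.5 ± 13.5 CPM in E, 4.24 ± 1.81 in GHMT and 5.87 ± 1.11 in AGHMT-labelled cells. In GHMT Smurf1, Ski and Ppm1a fell, and in AGHMT-labelled cells Smurf1 and Ski fell and Wwp1, Trim33 and Dab2 rose, against E. Ppm1a, a Smad phosphatase, was the gene that rose in AGHMT-labelled against GHMT (1.30, edgeR adjusted p = 0.0164). Rnf111, a ligase that removes Smad7 and Skil, was at 33.0 ± 2.07 CPM in E and 128 ± 58.9 in GHMT (1.94, edgeR adjusted p = 0.000739).

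Known response genes were mostly lower than in E in the other 3 groups. Of 24, 17 fell and 2 rose in GHMT, 16 fell and 0 rose in AGHMT-labelled cells, and 22 fell and 1 rose in CM, with medians of -2.72, -2.37 and -4.98. Over all genes 32.9%, 24.6% and 22.5% were lower and the medians were -1.06, -0.16 and -0.26. With the 3 genes at 0 reads set at their bound, the GHMT median was -2.46. Timp1, a protease inhibitor, was at 329 ± 217 CPM in E, 6.59 ± 1.12 in GHMT, 16.7 ± 4.77 in AGHMT-labelled cells and 1.81 ± 0.175 in CM. Tgfbi, a secreted matrix protein named for its induction, was at 51.3 ± 26.4 CPM in E and 1.10 ± 1.35 in GHMT (-5.23, edgeR adjusted p = 9.70e-05), and Angptl4 held 0 reads in GHMT, at least 13.3-fold lower than E over the floor of 3 reads. Acta2, smooth muscle actin, had the highest level per kb of the list, and was at 1922 ± 1461 CPM in E and 317 ± 58.9 in GHMT. Summed smooth muscle and pericyte markers were at 593 to 3621 CPM in E and 274 to 447 in GHMT. This sum includes Acta2 itself, so it moves with Acta2 by construction. The fibroblast markers, which include the response genes Col1a1 and Col1a2, were at 5570 to 8652 and 3812 to 5296. The part of these cell types in the falls was not tested. The 2 genes that rose in GHMT, named after their values were seen, were Junb, at 22.8 ± 13.2 CPM against 1.63 ± 1.08 in E (edgeR adjusted p = 0.0106), and Nox4 (1.66, adjusted p = 0.0166). Junb was also the gene that rose in CM, where CM 3 held 59.4 CPM against 1.49 and 4.53 in the others.

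In AGHMT-labelled against GHMT, 4 of the 24 response genes rose and 0 fell. This is 16.7% called, close to the 17.8% of all genes tested, of which 13.2% were higher. Postn, periostin, was at 259 ± 135 CPM in GHMT and 891 ± 123 in AGHMT-labelled cells (1.78, edgeR adjusted p = 0.00978), below the 4396 ± 571 CPM of E. Tnc, tenascin C, went from 107 ± 36.1 to 337 ± 85.7 CPM (1.64, adjusted p = 0.00508) and Col3a1 from 776 ± 155 to 1851 ± 43.9 (1.25, adjusted p = 0.00400). The fourth, named after its values were seen, was Col1a2, at 862 ± 316 and 1756 ± 206 CPM (1.03, adjusted p = 0.0326). Fibroblast markers, of which Col1a2 is 1, were summed above at 3812 to 5296 CPM in GHMT and 5149 to 6207 in AGHMT, and their part in these differences was not tested.

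**Figure D5:**
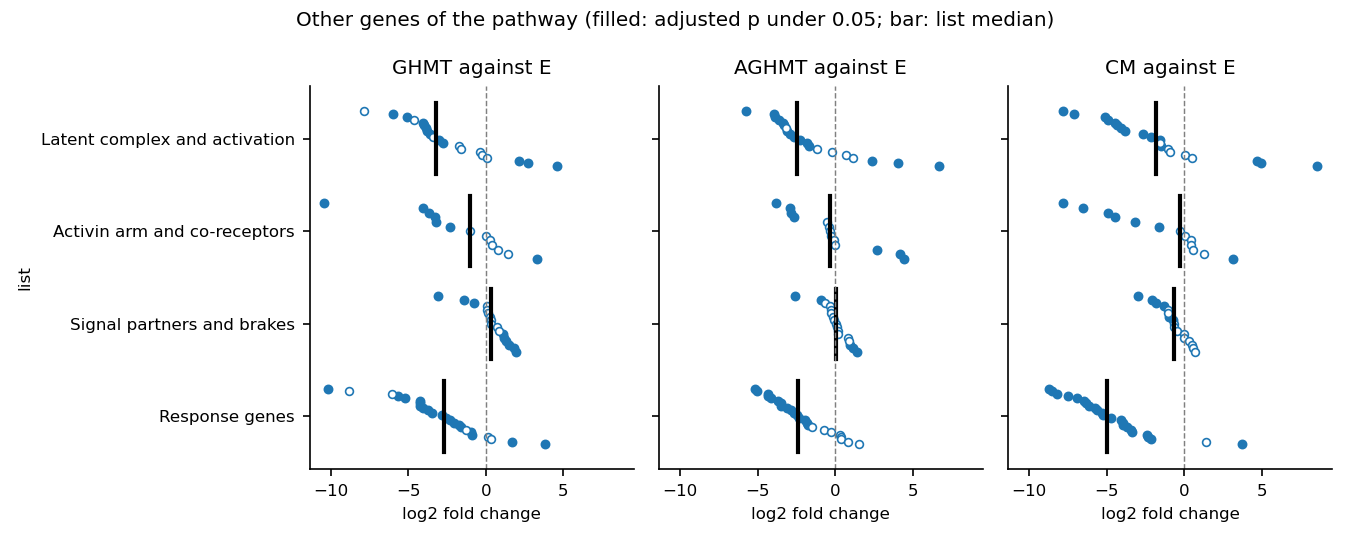
Log2 fold change of every tested gene of 4 further pathway lists in GHMT, AGHMT and CM against E, filled where the edgeR adjusted p is under 0.05, with the list median as a bar. The response genes lie mainly to the left of 0 in each panel, with medians of -2.72, -2.37 and -4.98.

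Over the 12 libraries, the genes most like each of the 9 were taken from 6748 genes with a mean of at least 10 CPM by the Pearson r of log2 CPM. The 12 points share group, depth and GC slope, and r is given as a description. For Tgfb2 the closest was Itgb8 (r = 0.999), then Lrch2 (0.995) and Shisa6 (0.990), and for Tgfbr1 they were Stk3 (0.995), Nmt2 (0.995) and Pde5a (0.994). For Smad3 the closest was Cars (0.993) and for Smad7 Zmiz1 (0.972). Tgfbr2 was closest to Fosl2 (0.980), Tgfbr3 to Adnp2 (0.987), Tgfb3 to B4galt5 (0.984), Smad2 to Hsph1 (0.969) and Tgfb1 to Sorcs2 (0.963). Among the 9 genes, Tgfb2 and Tgfbr1 gave r = 0.973, Tgfbr1 and Tgfbr2 gave 0.877 and Tgfb2 and Tgfbr2 gave 0.865. Tgfbr3 and Smad7 gave 0.871, Smad2 and Smad3 gave 0.854, and Tgfb1 and Tgfb2 gave -0.77.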

How the data were processed

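The submitters' processing notes name Bowtie2 2.0.6, HTSeq, DESeq and the build mm10, and per the labels the kit was stranded. How strand entered the counting, and the annotation, were not given in the sources used here. Each deposited per-library file holds raw counts per gene, and a further deposited table holds a normalized signal, which the authors made by scaling each library. After division by the smallest positive value of each library, 100% of its values for matched genes were whole numbers (tolerance 0.001). These were taken as the recovered reads. Rows for unassigned reads were left out: 8.45 to 20.2% of reads lay in no gene and 1.12 to 3.89% were ambiguous. Counts were tested with edgeR 4.0.16 in R 4.3.3 (quasi-likelihood, robust, TMM, minimum count 10 and total 15, 12 libraries in 1 fit, Benjamini-Hochberg over 15059 genes, threshold 0.05). DESeq2 1.42.0, limma 3.58.1 on log2 of the normalized signal plus 1, other scalings and filters, thinning, a replicate block and leaving out each library were alternatives. A GC content correction, reads recovered from the normalized signal (also tested with edgeR) and leaving out GHMT 1 with CM 3 were added after seeing the data. Levels per kb and positions use GENCODE M21 (GRCm38, the build of mm10), matched for 42548 of 43629 identifiers. From each pathway list the text may name the gene of highest level per kb and up to 3 called genes of largest change in each comparison, with exceptions said. The genes, lists and tests were chosen with earlier results of these data known. Intervals on ratios of pooled reads are exact binomial ones, and these and the floors cover counting error only. Intervals on log2 fold changes come from the edgeR fit and include the spread between libraries. Methods were tested on simulated data.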

Additional observations from a re-analysis of the deposited data

How the results depend on the processing

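Over up to 25 alternatives, 1208 fold changes of the 9 genes stayed on their side of the threshold, 79 lost the call and 53 gained it. A sign changed in 48 cases, 46 of them called under neither setting and counted in the 1208. The 2 others were Tgfbr3 in GHMT against E with total counts (-0.39, adjusted p = 0.309) and Smad3 in AGHMT-labelled against CM with DESeq2 (-0.66, adjusted p = 0.0425). The 46 include Tgfbr2 in both factor-treated groups against E (-0.79 and -0.38), Smad7 in AGHMT-labelled against E (7 cases, to -0.77), and in AGHMT-labelled against GHMT Tgfb1 (7, to 0.63), Tgfb2 (4, to 0.27), Tgfb3 (7, to 1.41) and Tgfbr2 (4, to 0.49). The rest were against CM: Smad3 (to -0.86), Smad7 (to -0.12) and Tgfbr3 (to -0.45) in AGHMT-labelled cells and Tgfb3 (-0.08) in GHMT. Alternatives were run only for list genes chosen by the naming rule, and only in some comparisons. List genes named after their values were seen had none. Of the list genes that were run, a few also changed sign against E. Wwp1, called in GHMT as reported, was at -0.10 with the GC content correction. Acvr2a and Strap were not called as reported. Acvr2a changed sign in GHMT with total counts (-1.20) and the GC content correction (-1.69), and in AGHMT with the latter (-1.10). Strap did so in GHMT with total counts (-1.33) and the GC content correction (-0.92). The 5 calls in AGHMT-labelled against GHMT became 3 with total counts, 2 with no filter, 3 with only those groups fitted, 3 when thinned to 612458 reads and 1 with the replicate block. Leaving out 1 library gave 1 to 5 calls there: 1 without AGHMT 1 or AGHMT 2, 2 without GHMT 1, CM 1 or E 2, and 3 without AGHMT 3 or E 1. CM against E went from 7 calls to 4 when thinned and to 9 with total counts. Total counts also moved the median of all genes in CM against E, from -0.26 to -1.25. The replicate number was not taken to pair samples. Deviations from group means correlated above 0.1 in 2 of 18 same-numbered pairs, and r ran from -0.72 to 0.13 over the 18. Libraries of a group also differ in depth and GC slope, so this check cannot tell whether same-numbered samples were prepared together. The block kept every other count within 1.5 times. Tgfb1 did not pass the stricter filter and has no value there. The cause of these changes was not tested. Reads recovered from the normalized signal gave 8, 5, 7, 5, 6 and 4 calls of the 9 genes, the counts reported, and over 14193 genes 2830 higher and 4645 lower in GHMT against E. Total counts moved the median of all genes in GHMT against E from -1.06 to -2.38. Depth limits GHMT most, where Tgfb1 rests on 3 reads, Smad3 on 27 and Smad2 on 42.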

Other observations

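The response genes were also compared with adult cardiomyocytes. Of 24 response genes, GHMT exceeded CM in 17 and fell short of it in 3 (58.6% of genes tested were called, 23.8% higher), and AGHMT-labelled cells did so in 16 and 1 (48.1% called, 23.7% higher). Lox, a collagen cross-linker, was at 7.97 ± 3.13 CPM in CM, 996 ± 262 in GHMT and 755 ± 72.1 in AGHMT-labelled cells. Cthrc1, a secreted collagen-related protein, was at 0.223 ± 0.0656, 80.0 ± 59.8 and 93.3 ± 3.30 CPM. The fibroblast markers, summed at 609 to 751 CPM in CM and 3812 to 6207 over the factor-treated libraries, move with these genes, and their part was not tested. Tgif1, a repressor of Smad targets, was at 3.20 ± 0.449 CPM in CM, 32.8 ± 3.39 in GHMT, 21.5 ± 3.06 in AGHMT-labelled cells and 25.5 ± 9.46 in E.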
